A study of Mus musculus with 2 samples.

Results

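The genes described here are 9 markers of the oligodendrocyte lineage, Olig1, Olig2, Sox10, Pdgfra, Cspg4, Mbp, Cnp, Mag and Mobp, out of 45578 genes in a table of ribosome footprints. They were listed by name as precursor genes and myelin genes, and for each gene the transcript with the largest count in the sum of both libraries was used. The tissue was brain of control mice of the Taiwanese spinal muscular atrophy strain at postnatal day 5, with the genotype Smn+/-; SMN2tg/0 on a congenic FVB background: 1 functional copy of mouse Smn together with the human SMN2 transgene. The labels give 2 biological replicates of this 1 group and no other condition, and the series' design text speaks of a mouse in the singular, so the spread between the libraries may be partly technical. RiboLace captures translating ribosomes from a lysate on beads that carry a puromycin analogue, and the fragments that these ribosomes protect from nuclease are sequenced, so a count reflects both how much of a messenger RNA is present and how many ribosomes it carries.

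Oligodendrocytes form the myelin of the central nervous system. They arise from dividing progenitors that carry the PDGF receptor alpha and the NG2 proteoglycan on their surface, then leave the cell cycle and switch on the genes of the myelin sheath, while the transcription factors Olig1, Olig2 and Sox10 are present through much of this course. In the rodent brain most myelin is made in the weeks after birth, beginning in the hindbrain and reaching the forebrain later. In whole brain, fewer cells of a type and fewer footprints per cell cannot be told apart.

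The libraries held 343552 counts in replicate 1 and 120282 in replicate 2 at the gene level. After TMM scaling, a single count in replicate 1 equals 2.71 CPM (counts per 1000000 counts of the scaled library) and a single count in replicate 2 equals 8.93 CPM. Levels of different genes are compared below only as footprint density, the CPM divided by the length of the coding sequence in kilobases. All 9 members had at least 1 count in each library, and together they held 244 of the counts of replicate 1 and 93 of those of replicate 2. These were shares of 0.0710% (95% Wilson interval 0.0627 to 0.0805) and 0.0773% (0.0631 to 0.0947). The mean share was 0.0742% ± 0.00445 (SD, n = 2). Intervals here and below cover counting error only. A mean of at least 10 counts, the level at which genes entered the test between libraries, was reached by 7 members, while Mag and Mobp stayed below it.

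Footprints at this age were found on the lineage genes and on the myelin genes alike. The transcription factor Olig1 had the highest density of the 9, the myelin genes Mbp and Cnp came next, and the progenitor proteoglycan gene Cspg4 had the lowest. This order depended on the isoform and the length used. With isoforms summed, Mbp (722 CPM per kb) and Cnp (149 CPM per kb) stood above Olig1 (93.9 CPM per kb). With the longest coding isoform, Mbp (95.8 CPM per kb) fell behind Cnp (116 CPM per kb) and Olig2 (98.3 CPM per kb), and Mobp (11.6 CPM per kb) was below Cspg4 (14.8 CPM per kb). Per kb of the whole transcript, Olig1 (67.7 CPM per kb) led Cnp (60.5 CPM per kb), and Mobp (2.18 CPM per kb) was the lowest, below Cspg4 (12.5 CPM per kb). The median density of the 9 members was 34.0 CPM per kb, against 15.0 CPM per kb for the 13653 protein-coding genes with a count. Of the 9 members, 8 lay above the coding median in replicate 1 and 9 in replicate 2. By total CPM, without the division by length, the order differed: Olig1 and Cnp led and Cspg4, whose coding sequence is 6984 nucleotides, stood in place 3 of 9.

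**Figure D1:**
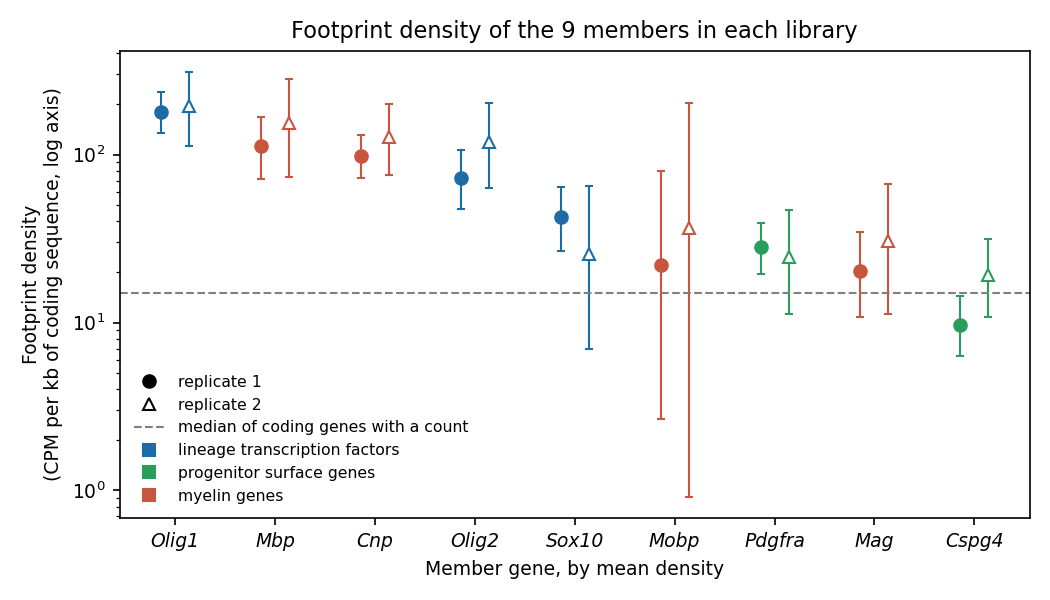
Footprint density (CPM per kb of coding sequence, log axis) of each member in replicate 1 (filled circles) and replicate 2 (open triangles), with 95% Poisson intervals of the count; colours give the role and the dashed line the median of coding genes with a count. Olig1, Mbp, Cnp and Olig2 sit highest, and the intervals of Mobp, with 2 and 1 counts, are the widest.

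Olig1 and Olig2 are basic helix-loop-helix transcription factors that specify the lineage and act in its maturation. Both have a single annotated isoform in the table. Olig1 (ENSMUSG00000046160, coding sequence 783 nucleotides) had 52 and 17 counts in replicates 1 and 2, a density of 180 CPM per kb (95% Poisson interval 134 to 236) and 194 CPM per kb (113 to 310). Its mean density of 187 CPM per kb ± 9.83 (SD, n = 2) exceeded that of 93.9% of coding genes with a count, and its SD of 5.26% of the mean was the smallest of the 9 members. Olig2 (ENSMUSG00000039830, coding sequence 972 nucleotides) had 26 and 13 counts, or 72.5 CPM per kb (47.4 to 106) and 119 CPM per kb (63.6 to 204). Its mean was 96.0 CPM per kb ± 33.2 (SD, n = 2). The density of Olig1 was 2.48 times that of Olig2 in replicate 1 (95% exact binomial interval 1.52 to 4.14) and 1.62 times in replicate 2 (0.743 to 3.63), so the order of this pair was resolved in the deeper library alone.

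Sox10, a transcription factor that activates myelin genes together with its partners, stood lower than both. Sox10 (ENSMUSG00000033006, coding sequence 1401 nucleotides) had 22 and 4 counts, or 42.6 CPM per kb (26.7 to 64.4) in replicate 1 and 25.5 CPM per kb (6.95 to 65.3) in replicate 2, with a mean of 34.0 CPM per kb ± 12.1 (SD, n = 2). Olig1 exceeded Sox10 by 4.23 times in replicate 1 (2.52 to 7.31) and by 7.60 times in replicate 2 (2.48 to 31.1). For Olig2 against Sox10 the ratio was 1.70 (0.928 to 3.15) and 4.68 (1.45 to 19.7), and the interval of replicate 1 held a ratio of 1.

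For the transcripts used, the surface genes that define progenitors stood below Olig1, Mbp, Cnp and Olig2 in mean density. Pdgfra (ENSMUSG00000029231), the receptor through which PDGF drives progenitor division, has a coding sequence of 3270 nucleotides in the transcript used and had 34 and 9 counts. That gave 28.2 CPM per kb (19.5 to 39.4) and 24.6 CPM per kb (11.2 to 46.7), with a mean of 26.4 CPM per kb ± 2.55 (SD, n = 2). This mean exceeded that of 64.9% of coding genes with a count. Cspg4 (ENSMUSG00000032911), which encodes the NG2 proteoglycan, had 25 and 15 counts, or 9.70 CPM per kb (6.28 to 14.3) and 19.2 CPM per kb (10.7 to 31.6). Its mean of 14.4 CPM per kb ± 6.70 (SD, n = 2) was below the coding median. The density of Pdgfra was 2.90 times that of Cspg4 in replicate 1 (1.68 to 5.08) and 1.28 times in replicate 2 (0.494 to 3.13).

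Among the myelin genes, Mbp and Cnp were several times denser than Mag. Mbp (ENSMUSG00000041607), myelin basic protein, compacts the cytoplasmic faces of the sheath. It had 24 and 10 counts on a transcript with an annotated coding sequence of 581 nucleotides and no 5' untranslated region, a density of 112 CPM per kb (71.7 to 167) in replicate 1 and 154 CPM per kb (73.7 to 283) in replicate 2. Cnp (ENSMUSG00000006782), an enzyme of non-compact myelin, had 46 and 18 counts over 1263 coding nucleotides, or 98.7 CPM per kb (72.3 to 132) and 127 CPM per kb (75.4 to 201). The means were 133 CPM per kb ± 29.5 for Mbp and 113 CPM per kb ± 20.2 for Cnp (each SD, n = 2). Their ratio was 1.13 in replicate 1 (0.662 to 1.90) and 1.21 in replicate 2 (0.498 to 2.76), and the densities of the 2 genes overlapped between the libraries.

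Mag (ENSMUSG00000036634), an adhesion molecule on the inner face of the sheath toward the axon, had 13 and 6 counts over 1749 coding nucleotides, or 20.1 CPM per kb (10.7 to 34.4) and 30.6 CPM per kb (11.2 to 66.7). Its mean was 25.4 CPM per kb ± 7.42 (SD, n = 2). Mbp exceeded Mag by 5.56 times in replicate 1 (2.72 to 11.9) and by 5.02 times in replicate 2 (1.65 to 16.8), and Cnp exceeded Mag by 4.90 times (2.60 to 9.89) and 4.15 times (1.58 to 12.8). Mobp (ENSMUSG00000032517), a small basic protein of compact myelin, had 2 and 1 counts. With a coding sequence of 246 nucleotides this came to 22.0 CPM per kb (2.67 to 79.6) and 36.3 CPM per kb (0.919 to 202), too few counts to place it among the others.

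In the order of mean density, Olig1, Mbp, Cnp, Olig2, Sox10, Mobp, Pdgfra, Mag and Cspg4, no pair of neighbours was separated in both libraries. Of the 8 neighbouring pairs, 5 had overlapping values between the libraries, and in 0 of the 8 did the 95% exact binomial interval of the ratio exclude 1 in both. Over all 36 pairs of members, the interval excluded 1 in both libraries for 15. These 15 pairs set Olig1, Mbp or Cnp above Sox10, Pdgfra, Mag or Cspg4, and Olig2 above Pdgfra, Mag or Cspg4. The intervals hold for the transcripts used and do not cover the choice of isoform. With isoforms summed, Olig2 (48.4 CPM per kb) stood below Pdgfra (48.7 CPM per kb) and Mag (54.6 CPM per kb). Among Olig1, Mbp, Cnp and Olig2, and among Sox10, Pdgfra, Mag and Cspg4, no pair was resolved in both libraries. Neither was Olig2 against Sox10, nor Mobp against any other member.

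Lineage and myelin genes were then set against each other within each library, which does not depend on the scaling between libraries. The lineage genes include the transcription factors Olig1, Olig2 and Sox10, which are not confined to progenitors. In replicate 1 these factors held 295 CPM per kb of a summed lineage density of 333 CPM per kb. In replicates 1 and 2, the 4 myelin genes summed to 85 and 35 counts, and the 5 lineage genes (Olig1, Olig2, Sox10, Pdgfra and Cspg4) to 159 and 58. Of the members' counts the myelin genes held 34.8% (Wilson interval at 95%, 29.1 to 41.0) in the first library and 37.6% (28.5 to 47.8) in the second, and these intervals overlapped. As summed density, the myelin genes stood at 0.759 of the lineage genes in replicate 1 and at 0.909 in replicate 2, or 0.834 ± 0.106 (SD, n = 2). This ratio rested on single genes: it was 1.75 without Olig1, 0.465 without Mbp and 0.520 without Cnp. With the longest coding isoform of each gene it was 0.664, and with isoforms summed, where the 16 isoforms of Mbp are added up, it was 4.49. Against the surface genes Pdgfra and Cspg4 alone, the summed density of the myelin genes was 6.67 times theirs in replicate 1 and 7.95 times in replicate 2, while the counts themselves stood at 85 to 59 and 35 to 24. These sums are over 4 and 2 genes, which raises the ratio. The median densities of the myelin and surface genes were 60.4 and 18.9 CPM per kb in replicate 1. In replicate 2 they were 81.8 and 21.9 CPM per kb.

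The libraries were compared gene by gene with a 2-sided exact binomial test of their reads, adjusted by the Benjamini-Hochberg method over all 5436 genes that reached the count filter; it compares these libraries, not conditions. Of the 7 members tested, 0 passed an adjusted p of 0.05, against 4.14% of all genes tested and 0.956% of the 4392 protein-coding genes tested. At an unadjusted p under 0.05 the count was 1 of 7 members and 522 of 5436 genes. Under DESeq2 size factors 0 members were called as well. Each of the 9 members had a fold between the libraries whose 95% exact interval held 1.

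Among the members, Cspg4 differed most in the tested set. Its 25 and 15 counts gave a log2 ratio of replicate 2 over replicate 1 of 0.97 on the log2(CPM + 1) scale (counting SE 0.471), a fold of 1.98 (0.969 to 3.90) with an unadjusted exact binomial p of 0.0396 and an adjusted p of 0.459. Sox10 had the lowest ratio, -0.72 (SE 0.784), with an adjusted exact binomial p of 0.995 and a fold of 0.599 (0.150 to 1.76). Olig1 lay closest to equality at 0.11 (SE 0.403, adjusted exact binomial p = 1). The ratios of Olig2, Mbp, Cnp, Mag and Mobp were positive and that of Pdgfra was -0.19. The median log2 ratio of the 7 tested members was 0.36, beside 0.0041 for all genes tested. With library totals in place of TMM, which lowers the median of all tested genes to -0.20, Olig1 turned to -0.10.

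**Figure D2:**
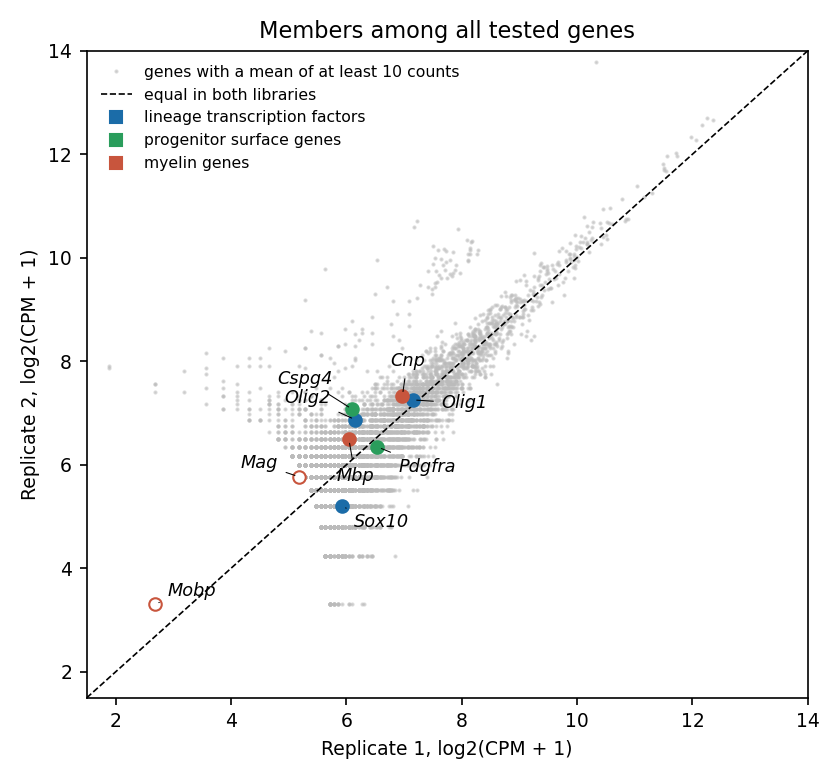
Members (coloured; open where the mean is under 10 counts) among all 5436 tested genes (grey), as log2(CPM + 1) in replicate 1 and replicate 2, with the dashed line at equal values. The 7 tested members lie within the cloud of tested genes, Cspg4 above the line and Sox10 below it, and Mobp is lowest.

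Isoforms set a limit on the values of the myelin genes and Pdgfra, since how a fragment from sequence shared by isoforms was counted is not given in the sources used here. Olig1, Olig2, Sox10 and Cspg4 have 1 isoform each in the table, so their own counts are the same whichever isoform stands for a gene. Their CPM still depends on the library totals, which summing the isoforms of all genes raised: the density of Olig1 then went from 187 to 93.9 CPM per kb, Olig2 from 96.0 to 48.4, Sox10 from 34.0 to 17.0 and Cspg4 from 14.4 to 7.30. Mbp has 16 isoforms, 14 of them annotated as protein coding. The 12 that are longer than 1900 nucleotides had between 15 and 24 counts in replicate 1 and between 4 and 10 in replicate 2, although their annotated coding sequences run from 451 to 753 nucleotides. Summed over its isoforms, Mbp had 276 and 103 counts. The isoform Mbp-004, with 168 coding nucleotides, had 1 and 0 counts.

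Cnp has 4 isoforms. Cnp-001, the coding one, had 46 and 18 counts and the processed transcript Cnp-002 had 42 and 18, so a transcript with no annotated coding sequence carried nearly the same count as the coding one. RefSeq places Dnajc7 across part of Cnp, and whether counting used strand is not given in the sources used here. Pdgfra has 9 isoforms, of which Pdgfra-001 (34 and 9 counts) and Pdgfra-006 (29 and 12) share a coding length of 3270 nucleotides. The transcripts Pdgfra-002 and Pdgfra-003, with 2373 coding nucleotides, had 19 and 6 and 17 and 5 counts. For Mag, the transcripts Mag-201 (13 and 6 counts) and Mag-001 (12 and 2) have the same coding length of 1749 nucleotides, and 1 of its 8 isoforms had no count. No isoform of Mobp had more than 2 counts in either library.

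**Figure D3:**
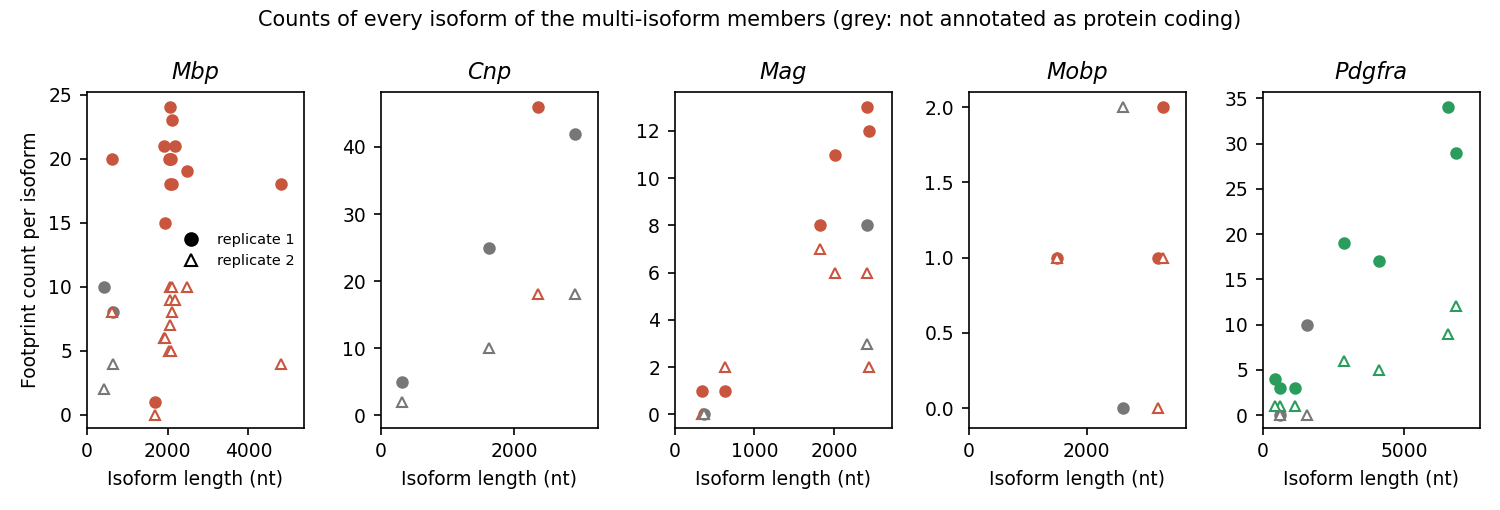
Footprint count (vertical axes, each with its own scale) against isoform length in nucleotides for every isoform of Mbp, Cnp, Mag, Mobp and Pdgfra; filled circles are replicate 1 and open triangles replicate 2, and grey marks isoforms not annotated as protein coding. The Mbp isoforms over 1900 nucleotides cluster between 15 and 24 counts in replicate 1, and Cnp-002 without a coding sequence nearly equals Cnp-001.

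Other genes of the lineage were read from lists. Of 16 further lineage and progenitor genes, 13 had a count in both libraries, 6 were tested and 0 passed the test between the libraries, at the adjusted threshold and at an unadjusted p under 0.05 alike. Their median density was 16.0 CPM per kb. Ptprz1, a receptor phosphatase of progenitors and radial glia, led with 325 and 87 counts and 119 CPM per kb ± 10.6 (SD, n = 2). Gpr17, a receptor of cells about to differentiate, had 47 and 7 counts and 93.1 CPM per kb ± 45.0 (SD, n = 2), with an adjusted exact binomial p of 0.643 between the libraries. Lhfpl3, a progenitor marker, had 13 and 6 counts and 64.6 CPM per kb ± 18.9 (SD, n = 2). The lineage regulator Nkx2-2 had 1 and 0 counts, while Nkx6-2 had 0 in both, which allows a share of up to 0.000873% of replicate 1 and 0.00249% of replicate 2.

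Of 15 regulators of commitment and differentiation, 14 had a count in both libraries, 9 were tested and 0 passed the test, adjusted or not. Their median density of 42.5 CPM per kb was led by Id2 (451 CPM per kb ± 79.4, SD, n = 2) and Id4 (236 CPM per kb ± 21.5, SD, n = 2), inhibitors of helix-loop-helix factors that restrain differentiation, and by Qk (213 CPM per kb ± 55.2, SD, n = 2), an RNA-binding protein needed for myelin messenger RNAs. These 3 genes are also expressed outside the lineage. The other genes of the list were lower. Zfp488, a transcription factor of the lineage, had 5 and 9 counts. Its density of 46.3 CPM per kb ± 46.6 (SD, n = 2) was above the list median. At the low end of the list, Bcas1, a marker of early myelinating cells, had 13 and 4 counts. Enpp6, of newly formed oligodendrocytes, had 3 and 2, and Myrf, the factor that switches on the mature programme, 3 and 0.

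Of 18 further myelin genes, 11 had a count in both libraries and 3 had none; 4 were tested and 0 passed the test, with 1 at an unadjusted p under 0.05. The list was split between a few dense genes and many near 0. Cldn11, the tight junction protein of myelin, had 30 and 7 counts and 115 CPM per kb ± 21.3 (SD, n = 2), and Car2, a carbonic anhydrase of oligodendrocytes, 18 and 6 counts and 65.4 CPM per kb ± 4.33 (SD, n = 2). Genes of the mature sheath were at the limit of detection: Mog, Aspa and Gal3st1 had 2 and 0 counts each, while Opalin, Ermn and Mal had 0 in both libraries. At this depth a gene at 0 could have a level of up to 8.13 CPM in replicate 1 and 26.8 CPM in replicate 2, so their absence was not shown. The transcript that stood for Fa2h has no coding length, and no density was given for it.

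Of the PDGF ligands, Pdgfa, the ligand of the receptor alpha, had 4 and 1 counts, Pdgfb 11 and 3, Pdgfc 7 and 0 and Pdgfd 0 in both. The other receptor, Pdgfrb, had 9 and 6 counts. Of the 6 ligands and receptors, Pdgfra was the 1 gene that passed the count filter, and it did not pass the test between the libraries (adjusted exact binomial p = 1).

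Pdgfra and Cspg4 also mark cells outside the lineage, fibroblasts of the meninges and pericytes. The 6 fibroblast genes, Pdgfra among them, summed to 189 CPM per kb in replicate 1 and 271 in replicate 2, and 1 of the 5 tested was higher in replicate 2. That gene was Col1a1, the main chain of fibrillar collagen, with 87 and 48 counts, a log2 ratio of 0.86 (SE 0.259) and an adjusted exact binomial p of 0.0370; the call was lost with library totals, among coding genes alone and with a preset coefficient of variation of 0.2. Col1a2 had 69 and 25 counts and Dcn 14 and 8, and neither passed the test, while Lum had 1 and 0. The 8 pericyte genes, Cspg4 among them, summed to 190.5 CPM per kb in replicate 1 and 117 in replicate 2, and 0 of the 4 tested passed the test, with 1, Cspg4, at an unadjusted p under 0.05. Of the defining pericyte genes, Rgs5 had 22 and 2 counts and Vtn 25 and 7, while Kcnj8 had 1 and 0 and Anpep 2 and 0. The part of these cells in the counts of Pdgfra and Cspg4 was not tested.

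Cnp and Mbp are also made by the Schwann cells of peripheral nerve. Of the Schwann cell genes, Pmp22 had 9 and 0 counts, Ncmap 0 and 2, Prx 2 and 1 and Pmp2 0 in both. The part of such cells in the myelin counts was not tested.

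Beside the other neural lists, the members had a lower median density (34.0 CPM per kb), but the ranges overlapped. The least dense astrocyte gene, Aldh1l1 (40.6 CPM per kb), and neuron gene, Rbfox3 (56.0 CPM per kb), lay below Olig1, Mbp, Cnp and Olig2. The 8 astrocyte and radial glia genes had a median density of 229 CPM per kb and were led by Fabp7, Apoe and Aldoc, at 1989 CPM per kb ± 479, 1075 CPM per kb ± 35.9 and 345 CPM per kb ± 13.9 (each SD, n = 2). The 6 neuron genes had a median of 273 CPM per kb, led by Tubb3 at 2399 CPM per kb ± 387, with Snap25 at 581 CPM per kb ± 12.7 and Syt1 at 290 CPM per kb ± 1.36 (each SD, n = 2). Tubb3 was higher in replicate 2 (log2 ratio 0.33, SE 0.0843, adjusted exact binomial p = 0.00365), a call lost with library totals and with the preset coefficient of variation. These lists were chosen for markers of each cell type, and no test was made between them.

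**Figure D4:**
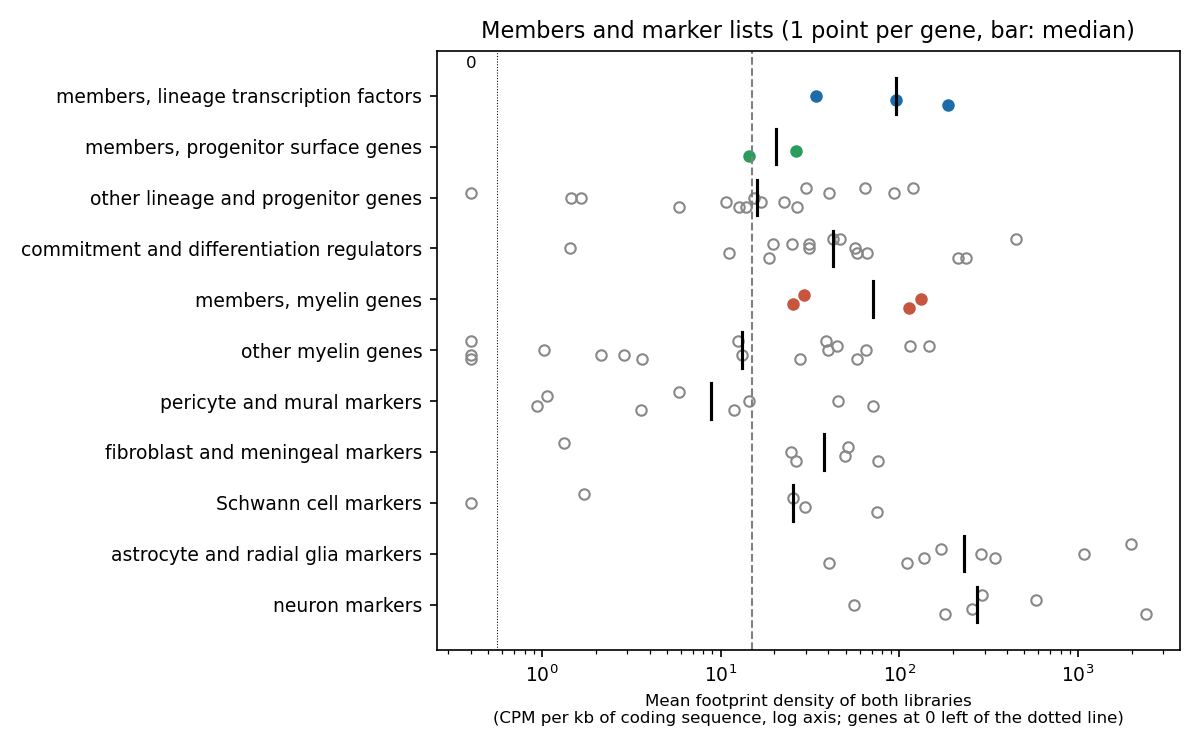
Mean footprint density of both libraries (CPM per kb of coding sequence, log axis) for each gene of the members (coloured) and of the other lists (open grey), with a bar at each list's median and a dashed line at the median of coding genes; genes with 0 counts are drawn left of the dotted line. Pdgfra is also shown among the fibroblast genes and Cspg4 among the pericyte genes, and the other myelin genes spread from 0 to the level of the densest myelin members.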

How the data were processed

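The authors deposited 1 table of whole-number counts of footprints per transcript, not normalised, for 109463 transcripts of 45578 genes, with transcript and region lengths per the file headers. Per the labels' protocols, fragments of 25 to 35 nucleotides were selected; the submitters' processing notes name Trimmomatic 0.36, Bowtie2 2.2.6, SAMtools and build GRCm38.p4, with no role. The counting rule, annotation release and strand setting are not given in the sources used here. The RefSeq table used for neighbouring genes is of GRCm38.p6, so no coordinates are printed. Sequences of the members' coding regions or proteins were not used here.

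The members and lists were chosen with earlier results of these data known. For each gene the transcript with the largest summed count was used, the longer in a tie; the symbol is the transcript name without its suffix, and all 9 members matched the name table. In the lists, Zfp24 was matched by its gene ID to Zfp191. CPM used effective library sizes from edgeR 4.0.16 TMM (factors 1.07 and 0.931) computed on genes averaging 10 counts or more. Count intervals are exact Poisson, ratios exact conditional binomial, shares Wilson, all at 95%. A count of 0 allows up to 3 counts. The 2-sided exact binomial test with Benjamini-Hochberg adjustment at 0.05 was tried on simulated Poisson counts. These vary by counting error only, as the test assumes, so the trial does not show how it performs on libraries with further spread. With 1 group, no model between conditions could be fitted. Named genes were all members, the 3 densest of each list and any list gene that passed the test; the other list genes were named after their values were seen, and some list genes are not reported here. Alternatives were library totals, DESeq2 1.42.0 size factors, isoforms summed, the longest coding isoform, coding genes alone, transcript length, count filters, pseudocounts of 1 and 0.1, a preset coefficient of variation of 0.2, and each library alone.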

Additional observations from a re-analysis of the deposited data

How the results depend on the processing

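No paired analysis was possible because both libraries belong to the same group. For a mean of at least 50 counts no member passes, so the number of members called has no value there. In the other 7 alternatives that bear on it, 0 members were called. An unadjusted exact binomial p under 0.05 was less stable. It was reached by 3 of 8 tested members with isoforms summed, 1 of 7 in the main setting and 0 of 7 with library totals. The share of all genes at that level with isoforms summed is not given here. The myelin to lineage ratio of 0.834 became 4.49 with isoforms summed, which adds up the 16 isoforms of Mbp, and 0.664 with the longest coding isoform, and ran from 0.759 to 0.909 with each library left out; with transcript length it was 0.790. The 225 genes that differed became 605 with isoforms summed (63.3% higher, against 96.4%), 22 for coding genes alone, 75 among genes that average 50 counts or more and 145 with the preset coefficient of variation of 0.2; where no cause is given, the cause was not tested. With library totals 88.4% of 199 calls were higher. The log2 ratio of Olig1 turned from 0.11 to -0.10 with library totals, and that of Pdgfra from -0.19 to 0.020 with isoforms summed. Of the 9 member densities, summing isoforms moved 9, transcript length 7 and the longest coding isoform 2 (Mbp and Mobp) by more than the SD between the libraries. Library totals and DESeq2 size factors moved 0; a single library cannot lie further than that SD from the mean of 2, so leaving either out says nothing here. Depth is low, with between 1 and 18 counts for each member in replicate 2.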

Other observations

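Several lineage genes outside the members differed between the libraries by more than any tested member without passing the adjusted test, and they are given as values chosen after they were seen. Apod, a lipocalin of oligodendrocytes and other cells, had 21 counts in replicate 1 and 1 in replicate 2 (log2 ratio -2.54, SE 1.48, adjusted exact binomial p = 0.459). Zfp488, a transcription factor of the lineage, had 5 and 9 counts, a log2 ratio of 2.48 (SE 0.805), and was below the count filter. Trf, transferrin, had 16 and 1 counts and was below the filter too.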
